A study of Mus musculus with 6 samples.

Results

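The mRNAs described are 41 genes of macroautophagy, the route by which a cell wraps part of its own content in a membrane and delivers it to the lysosome. They were taken by name from the deposited table of 22048 genes, and all 41 were found there. By the step at which their proteins work, 18 belong to initiation, 15 to conjugation, 6 are cargo receptors or adaptors and 2 act in fusion with the lysosome. The RNA came from neurospheres, which are floating clusters of hypothalamic neural stem and progenitor cells (NSC/NPCs) grown with EGF and bFGF and harvested at passage 1. Dams were C57BL/6 mice aged 8 weeks. In the HE group (high estradiol, 3 samples) they received estradiol valerate, an estradiol ester, by gavage at 100 μg/kg per day from E5.5 to E11.5, and in the NC group (3 samples) the dams were given corn oil, the solvent, although the sample labels call the NC samples untreated. Male fetuses of both groups were taken at E14.5, and each sample pooled cells of 2 mice. Nothing in the labels says whether the samples of a group came from separate dams. Samples that shared a dam would not be independent. The spread between samples, on which the p-values rest, may therefore understate the spread between dams.

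Autophagy begins when the ULK kinase complex, held in check by mTORC1 in fed cells, activates the class III PI3-kinase complex, whose lipid product marks the site where a membrane cup grows. WIPI proteins bind that lipid, ATG2 proteins carry lipids into the growing membrane, and ATG9 vesicles seed it. A conjugation system related to ubiquitination then attaches proteins of the ATG8 family (LC3 and GABARAP) to the membrane, and cargo receptors hold both ATG8 proteins and ubiquitinated cargo, so that receptor protein is itself degraded. In neural stem cells autophagy is known for its part in maintaining the cells and in clearing protein aggregates. RNA-Seq measures mRNA levels only, and the flux through the pathway was not measured.

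Libraries held 16078675 to 19137059 reads assigned to genes. Levels are in RPKM, reads scaled by gene length and library total, and differences are on the log2(RPKM + 0.1) scale as HE minus NC. They were tested with limma over 13952 genes with enough reads, with Benjamini-Hochberg adjustment over all of them, and a call required an adjusted p under 0.05 with a difference of 1 or more in either direction. HE3 stood apart from the other 5 samples, at a Euclidean distance of 77.7 to 107 on the log2 scale, whereas HE1 and HE2 were 38.7 apart and the NC samples 46.1 to 57.3. NC3 lay nearer to HE1 (43.4) and HE2 (48.0) than to NC2. The 8 neural stem cell markers were all detected, with summed levels of 2144 to 2248 RPKM in NC and 1621 to 2149 in HE. Vim, at 1234 to 1803 RPKM, made up most of that sum, whereas 7 of the 8 had a lower mean log2 level in HE. In HE3 Sox2 was at 97.3 RPKM (195 to 209 in NC), Sox1 at 7.48 (12.7 to 13.8), Hes5 at 2.14 (4.26 to 6.18) and Msi1 at 2.48 (7.45 to 7.59). Nes, at 247 RPKM (158 to 204 in NC), and Hes1, at 25.9 (17.4 to 22.5), were instead above the NC range in HE3. Vim and Pax6 were within that range in HE3. Astrocyte markers summed to 1365 to 1722 RPKM in NC and 934 to 1362 in HE, oligodendrocyte lineage markers to 282 to 304 and 307 to 512, and neuron markers to 43.1 to 72.6 and 49.9 to 67.9. Of the 5 astrocyte markers 4 were lower by sign, Gfap among them (624 to 754 in NC, 195 to 650 in HE). S100b was higher, at 5.42 to 9.30 RPKM in NC and 10.6 to 15.5 in HE. Of the 8 neuron markers 5 were lower by sign and 3 higher, Map2 among these (16.6 to 17.3 in NC, 22.3 to 26.4 in HE). Olig1 and Olig2 carried the oligodendrocyte sum, while 5 of the 7 genes were lower in HE by sign and in HE3 Sox10 was at 1.65 RPKM (13.0 to 15.4 in NC) and Mbp at 1.79 (11.8 to 22.2). Markers of cells from outside the neural lineage tended to higher summed levels in HE. The sums were 0.682 to 1.15 RPKM in NC and 2.01 to 9.29 in HE for the 8 of microglia. For the 6 endothelial ones they were 2.47 to 3.42 and 4.12 to 5.23. Those of the 6 mesenchymal ones overlapped, at 21.7 to 71.1 and 61.8 to 141. The microglia sum rested on C1qa, C1qb, C1qc and Tyrobp, whereas the groups overlapped for Csf1r, Cx3cr1, Aif1 and P2ry12. Cdh5, at 0.341 to 0.755 RPKM in NC and 1.66 to 2.75 in HE, carried the endothelial rise, and Flt1, Kdr, Pecam1 and Tek overlapped. Cldn5 did not overlap but was at very low levels, 0.0370 to 0.0377 RPKM in NC and 0.0395 to 0.264 in HE. The part of these cell types in the results was not tested, and in bulk RNA fewer cells of a type and less mRNA per cell cannot be told apart.

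No autophagy mRNA passed the test, and at the looser unadjusted cutoff 5 initiation genes, 3 cargo receptors and 1 conjugation gene were lower in HE NSC/NPCs than in NC. All 41 passed the filter on low reads, with 19 to 18917 reads per sample. No member was called (limma), and the background was 0% of the genes tested. The paper used DESeq2 with the same cutoffs and did report differentially expressed mRNAs, so the 0% belongs to the limma fit used here. Adjusted p-values of the members ran from 0.195 to 0.960, and the smallest over all genes was 0.148. At an unadjusted p under 0.05, 9 members were lower in HE, which is 22.0% of them against 11.8% of all genes tested, and 0 were higher, against 8.68%. The 9 were Ulk1, Atg13, Wdr45, Atg2a, Atg9a, Gabarapl1, Sqstm1, Optn and Wdfy3. Every HE value lay below every NC value for 13 members (31.7%, background 17.9%) and above for 2, Atg4b and Stx17 (background 14.8%). By sign alone 31 members (75.6%) were lower and 10 higher, against 56.2% of all genes tested that were lower, and with the trend with gene length removed 24 of 41 were lower, against 6856 of 13952 genes. The median log2 fold change was -0.20 over the members and -0.06 over all genes tested.

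**Figure D1:**
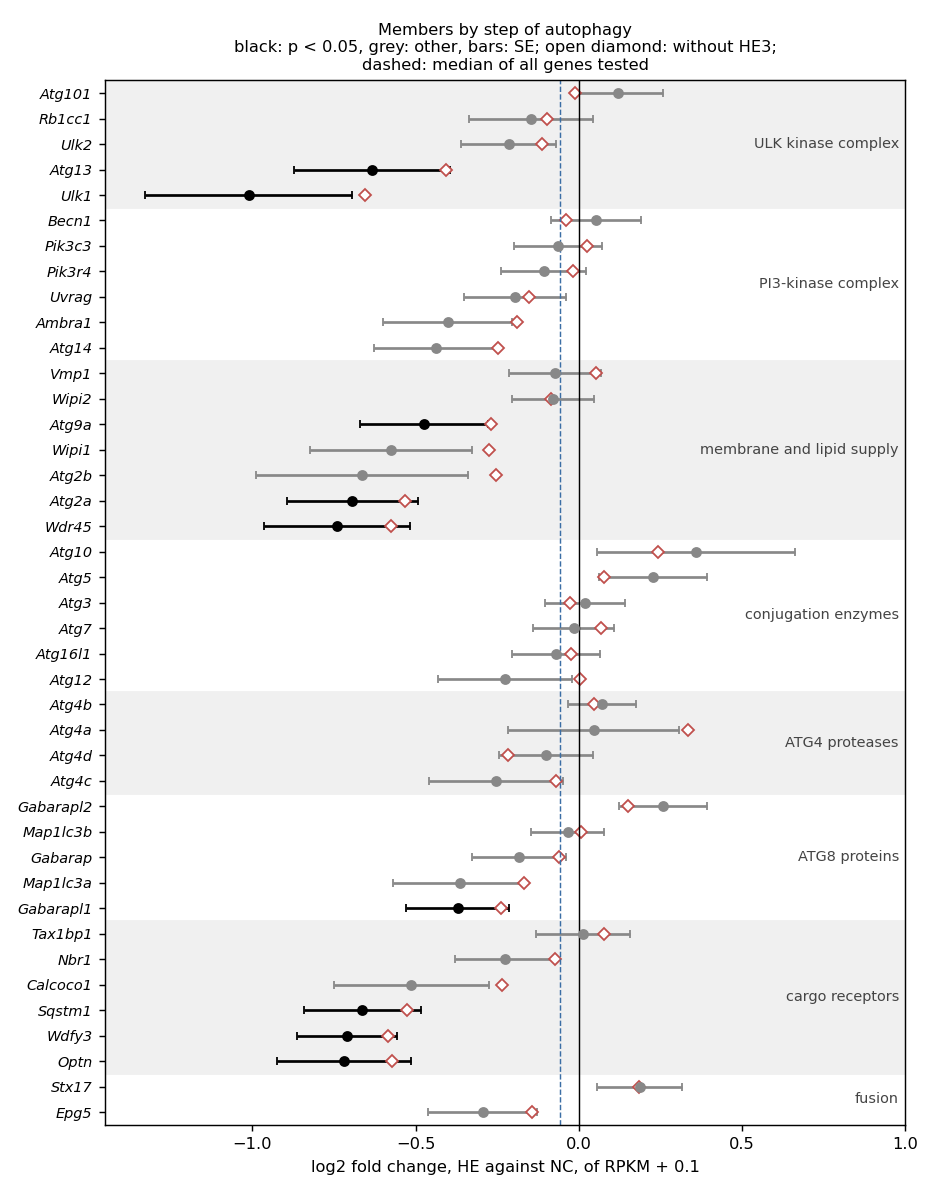
Log2 fold change of each of the 41 members (x axis, HE against NC, on RPKM + 0.1) by step of autophagy (y axis), with standard errors as bars, black for an unadjusted p under 0.05, open diamonds for the estimate without HE3 and a dashed line at the median of all genes tested. The 9 black points all lie left of 0, with Ulk1 at -1.01, and the conjugation enzymes lie on either side of 0.

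Within the ULK complex, Ulk1 and Atg13 were lower in HE and the other 3 genes were near their NC level. Ulk1, the kinase that starts the pathway (GRCm38.p6, chr5:110784489-110810120), was at 7.17, 7.51 and 5.91 RPKM in NC1 to NC3 and at 3.67, 5.05 and 1.99 in HE1 to HE3. The groups did not overlap, and HE3 was lowest. Its log2 fold change of -1.01 (standard error 0.32, unadjusted p = 0.0148, adjusted p = 0.195 in limma) was the only one of the 41 past 1, and it was -0.65 without HE3. Atg13, the subunit that mTORC1 phosphorylates to restrain the complex, was at 6.73, 6.99 and 5.37 RPKM in NC and 4.09, 5.49 and 2.93 in HE. HE2 exceeded NC3, so the groups overlapped. Its log2 fold change was -0.63 (standard error 0.24, unadjusted p = 0.0325, adjusted p = 0.220), and without HE3 it was -0.41 with an unadjusted p of 0.0583. Atg101, which stabilizes ATG13, had the highest level of the complex, at 36.8, 39.4 and 34.5 RPKM in NC and 36.4, 36.6 and 48.1 in HE. HE3 was the highest sample for this gene, and the log2 fold change was 0.12 (unadjusted p = 0.416). Ulk2, the second kinase, and Rb1cc1, which encodes the scaffold FIP200, had log2 fold changes of -0.21 and -0.15.

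None of the 6 genes of the PI3-kinase complex reached an unadjusted p of 0.05. The subunits that every form of the complex shares were close to their NC level, with log2 fold changes of 0.05 for Becn1, -0.06 for the lipid kinase Pik3c3 and -0.11 for Pik3r4. Atg14, which directs the complex to the site of autophagosome formation, was at 6.56, 7.27 and 6.09 RPKM in NC and 5.63, 5.49 and 3.71 in HE. All 3 HE values were below the NC values, with a log2 fold change of -0.44 (standard error 0.19, unadjusted p = 0.0532, adjusted p = 0.248) and -0.25 without HE3. Ambra1, a regulator of ULK1 and Beclin 1, had 11.6, 11.0 and 10.7 RPKM in NC and 8.89, 10.6 and 6.22 in HE. HE2 lay just under the lowest NC sample, and the log2 fold change was -0.40 (standard error 0.20, unadjusted p = 0.0792). Uvrag, the subunit that takes the place of ATG14 in the endosomal form of the complex, was also without overlap, at 2.17 to 2.50 RPKM in NC and 1.87 to 2.15 in HE.

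All 7 genes that supply membrane and lipid were lower in HE by sign, against 56.2% of all genes tested. For 3 of them (42.9%, background 11.8%) the unadjusted p was under 0.05. For 5 (71.4%, background 17.9%) every HE value lay below every NC value. Atg2a, a lipid transfer protein, was at 7.75, 7.36 and 6.03 RPKM in NC and 4.25, 5.46 and 3.41 in HE. Every HE sample was below every NC sample, and the log2 fold change was -0.69 (standard error 0.20, unadjusted p = 0.0101, adjusted p = 0.195), or -0.53 without HE3. Wdr45, which encodes the lipid-binding WIPI4 that partners ATG2, was at 3.82, 4.52 and 3.17 RPKM in NC and 2.83, 2.23 and 1.75 in HE. Again the groups were separate, with a log2 fold change of -0.74 (standard error 0.22, unadjusted p = 0.0123, adjusted p = 0.195) and -0.57 without HE3. Atg9a, the lipid scramblase of the seed vesicles, was at 8.89, 8.72 and 7.57 RPKM in NC and 6.84, 7.02 and 4.48 in HE. HE1 and HE2 were close under the NC range and HE3 was well under it. The log2 fold change was -0.47 (standard error 0.20, unadjusted p = 0.0446, adjusted p = 0.237), and without HE3 it was -0.27 with an unadjusted p of 0.0510.

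The paralogs differed in level and in spread. Atg2b, at 14.3 to 16.7 RPKM in NC, was at 12.4 and 13.5 in HE1 and HE2 but at 5.46 in HE3, and Wipi1 in the same way went from 9.62 to 9.93 in NC to 7.83 and 8.33 in HE1 and HE2 and 4.27 in HE3. Their log2 fold changes of -0.66 and -0.57 had unadjusted p-values of 0.0795 and 0.0533 with all samples and 0.0469 and 0.0235 without HE3, where the spread within HE was smaller and the estimates were -0.25 and -0.27. Wipi2, the WIPI protein that recruits the conjugation machinery, had the highest level of these 7 genes, at 18.2, 22.7 and 17.9 RPKM in NC and 17.7, 19.1 and 18.5 in HE. The HE values lay within or just under the NC range, and the log2 fold change was -0.08 (95% confidence interval -0.37 to 0.21). Vmp1, a scramblase of the endoplasmic reticulum, had a log2 fold change of -0.07, and its sign turned without HE3 (0.05).

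The conjugation enzymes showed no shared direction, with 3 of 6 lower and 3 higher by sign and none at an unadjusted p under 0.05. Atg5, which is joined to ATG12 to form the ligase for ATG8 proteins, had 8.99, 9.58 and 9.90 RPKM in NC and 11.0, 9.07 and 13.7 in HE. HE2 lay inside the NC range, and the log2 fold change was 0.23 (standard error 0.16, unadjusted p = 0.208). Without HE2 it was 0.37 with an unadjusted p of 0.0486. Atg12, the ubiquitin-like protein of that pair, had 22.3, 26.9 and 22.5 RPKM in NC and 24.3, 23.4 and 14.7 in HE. Only HE3 was outside the NC range, and the log2 fold change of -0.23 (standard error 0.20) became 0.00 without that sample. Atg7, the activating enzyme of both conjugation reactions, and Atg3, the one that carries ATG8 proteins, had log2 fold changes of -0.02 (95% confidence interval -0.31 to 0.28) and 0.02 (-0.27 to 0.31). Atg16l1, the ligase subunit that docks on WIPI2, was at -0.07, and Atg10, which loads ATG12 and had the fewest reads of any member (19 to 42 per sample), at 0.36 with a standard error of 0.30.

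The ATG4 proteases trim ATG8 proteins before conjugation and release them afterwards, and none of the 4 genes reached an unadjusted p of 0.05. Atg4b, the main protease of the family, was at 9.67, 9.71 and 9.41 RPKM in NC and 10.1, 9.73 and 10.4 in HE. The HE values were all above those of NC, but by little, since the log2 fold change was 0.07 (95% confidence interval -0.17 to 0.32, unadjusted p = 0.513). Atg4c was at 2.15, 2.18 and 1.92 RPKM in NC and 1.93, 2.02 and 1.32 in HE. HE1 and HE2 were inside the NC range, and the log2 fold change was -0.25 (unadjusted p = 0.253). Atg4a was at 4.58 and 3.82 RPKM in HE1 and HE2 and 2.24 in HE3, on either side of the NC range of 3.02 to 3.48, and Atg4d had a log2 fold change of -0.10.

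Of the 5 genes of the ATG8 family, the proteins that coat the membrane and bind receptors, 4 were lower in HE by sign and Gabarapl1 alone reached an unadjusted p under 0.05. Gabarapl1 was at 74.4, 80.5 and 69.0 RPKM in NC and 70.4, 56.6 and 47.9 in HE. HE1 lay inside the NC range, and the log2 fold change was -0.37 (standard error 0.16, unadjusted p = 0.0499, adjusted p = 0.244). Without HE3 it was -0.24 with an unadjusted p of 0.102. Gabarap, the most abundant member of the family per length, was at 135, 148 and 137 RPKM in NC and 144, 125 and 104 in HE. HE1 was again inside the NC range, and the log2 fold change was -0.18 (unadjusted p = 0.240). Map1lc3a and Map1lc3b, which encode LC3 proteins, had log2 fold changes of -0.37 (standard error 0.20) and -0.03 (standard error 0.11). Gabarapl2 was the family member with a higher level in HE, with 19.96 to 23.8 RPKM in NC and 23.4 to 29.7 in HE and a log2 fold change of 0.26 (unadjusted p = 0.0963).

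The make-up of the ATG8 pool was compared as shares of a sum. Summed over the 5 genes the level was 327, 366 and 311 RPKM in NC and 329, 296 and 250 in HE, so that HE1 was within the NC range. Gabarapl2 made up 6.10, 6.52 and 6.64% of this sum in NC and 7.34, 7.91 and 11.9% in HE. Map1lc3b made up 9.30 to 9.56% in NC and 9.80 to 11.7% in HE, whereas the share of Gabarapl1 was 22.0 to 22.7% in NC and 19.1 to 21.4% in HE. For these 3 genes the shares of the groups did not overlap, and for Gabarap they did, at 40.4 to 44.1% in NC and 41.6 to 43.7% in HE. The shares add up to a fixed total, so they do not vary independently, and no test was made on them.

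**Figure D2:**
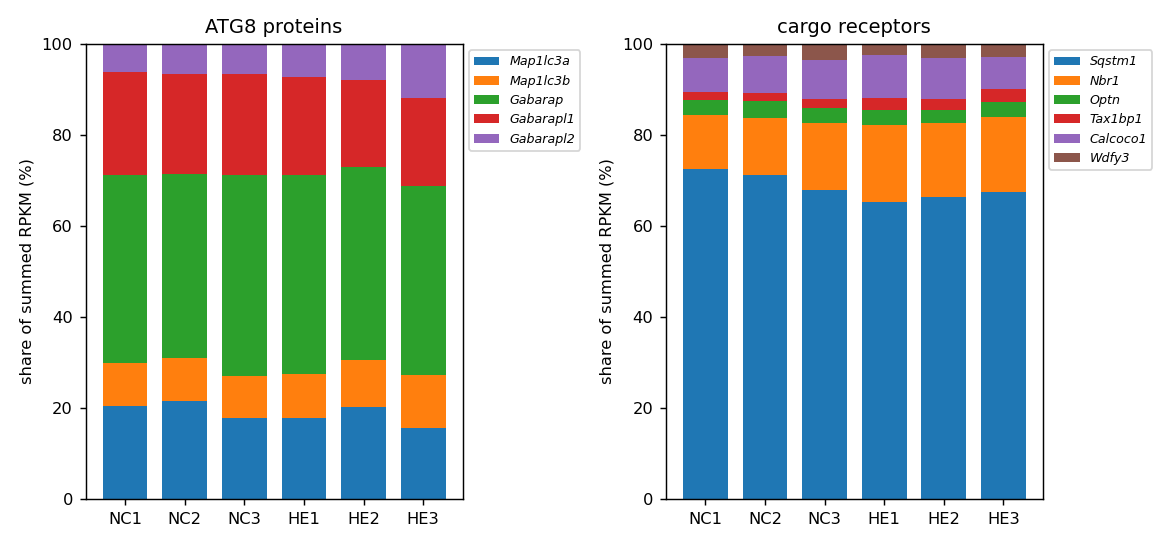
Share of each gene (y axis, % of the summed RPKM of its family) in each sample (x axis) for the 5 ATG8 genes on the left and the 6 cargo receptor genes on the right. Gabarap is the largest ATG8 share in all 6 samples and Gabarapl2 reaches 11.9% in HE3, while Sqstm1 is the largest receptor share at 65.4 to 72.5%.

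Cargo receptors and adaptors had the lowest median log2 fold change of the groups, at -0.59. At an unadjusted p under 0.05, 3 of the 6 (50%) were lower in HE, against 11.8% of all genes tested. Sqstm1, which encodes p62, the receptor for ubiquitinated aggregates (chr11:50200152-50210820), had the highest level of all 41 genes per length. It was at 276, 295 and 214 RPKM in NC and 183, 177 and 135 in HE. The highest HE sample was below the lowest NC sample, and the means were 262 ± 42.3 RPKM in NC and 165 ± 26.2 in HE (SD, n = 3 each). The log2 fold change was -0.66 (standard error 0.18, unadjusted p = 0.00755, adjusted p = 0.195), and -0.52 without HE3. Optn, which encodes optineurin, a receptor for damaged mitochondria and bacteria, was at 12.8, 15.9 and 10.4 RPKM in NC and 9.33, 7.96 and 6.31 in HE. The groups were separate, with a log2 fold change of -0.72 (standard error 0.20, unadjusted p = 0.00926, adjusted p = 0.195) and -0.57 without HE3.

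Wdfy3 encodes ALFY, a large adaptor that links p62 bodies to the membrane (chr5:101832953-102072215). It had 11.7, 10.6 and 10.8 RPKM in NC and 6.68, 8.00 and 5.60 in HE. The NC samples were close together and every HE sample was below them. Its log2 fold change of -0.71 (standard error 0.15) had the smallest unadjusted p of the members, 0.00227, with an adjusted p of 0.195, and it was -0.58 without HE3. Calcoco1, a receptor for the endoplasmic reticulum, was at 27.6 to 34.0 RPKM in NC and at 26.8, 24.3 and 14.3 in HE, with a log2 fold change of -0.51 and an unadjusted p of 0.0671. For Nbr1, a p62 partner that also binds ubiquitin, the difference was -0.22 (standard error 0.15), and for Tax1bp1, a receptor related to CALCOCO proteins, it was 0.01 (95% confidence interval -0.32 to 0.35). In the summed level of the 6 genes, which was 381, 414 and 314 RPKM in NC and 281, 267 and 200.3 in HE, Sqstm1 made up 68.0 to 72.5% in NC and 65.4 to 67.5% in HE. The shares of Nbr1, at 11.9 to 14.6% and 16.3 to 16.8%, and of Tax1bp1, at 1.62 to 1.88% and 2.33 to 2.93%, were the ones that were larger in HE without overlap.

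**Figure D3:**
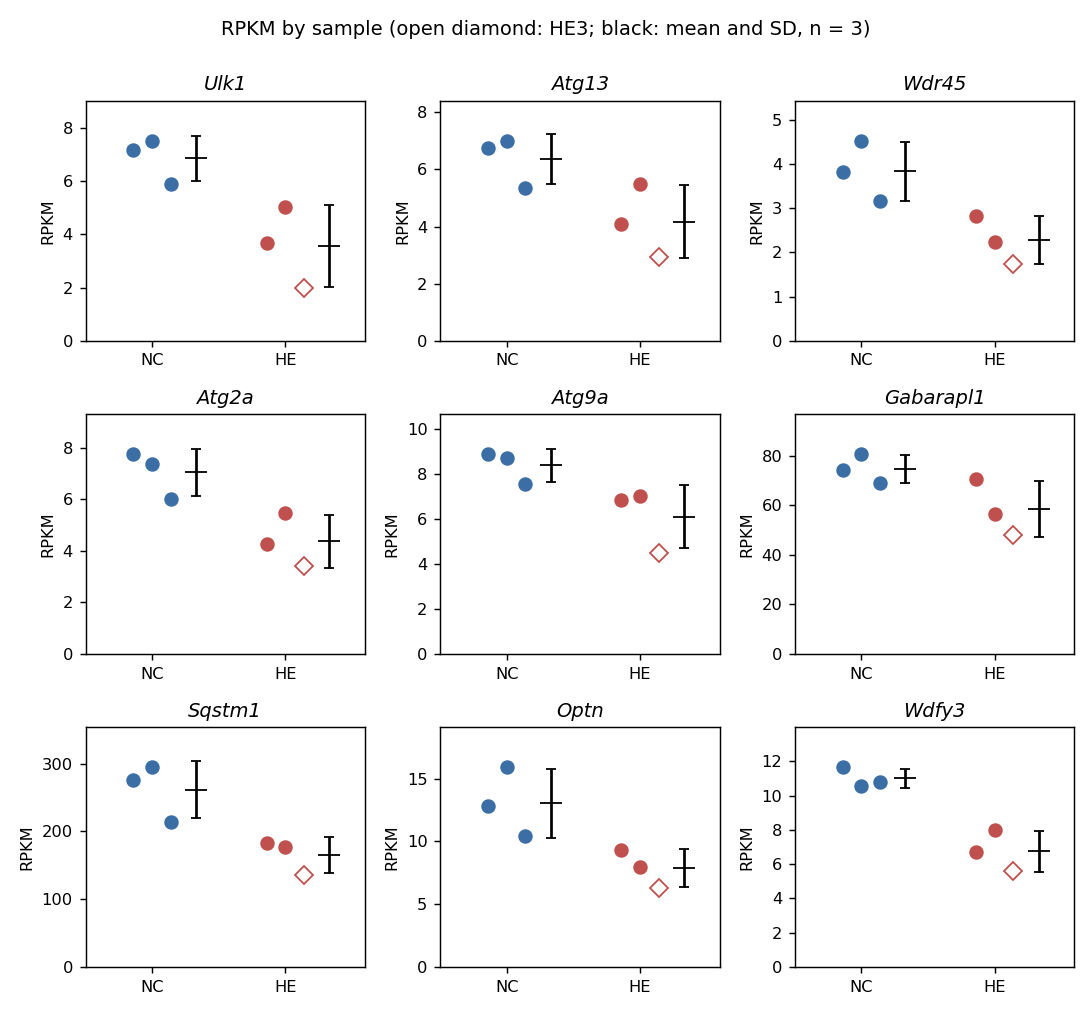
RPKM (y axis, from 0) in each NC and HE sample (x axis) of the 9 members with an unadjusted p under 0.05, with HE3 as an open diamond and the mean and SD of each group (n = 3) in black. HE3 is the lowest sample in all 9 panels, and the groups overlap in the panels of Atg13 and Gabarapl1.

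The 2 fusion genes lay on either side of 0. Stx17, the syntaxin of the closed autophagosome, was at 3.88 to 4.32 RPKM in NC and 4.57 to 4.94 in HE, all above NC, with a log2 fold change of 0.19 (unadjusted p = 0.191). Epg5, a tether between autophagosome and lysosome, had 6.76, 7.15 and 6.08 RPKM in NC and 5.83, 6.19 and 4.37 in HE. HE2 lay above NC3, and the log2 fold change was -0.29 (unadjusted p = 0.121).

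The steps were set side by side by their counts, for which the shares over all genes tested were 56.2% lower by sign, 11.8% lower at an unadjusted p under 0.05 and 17.9% lower without overlap. Of the initiation genes 16 of 18 were lower by sign, 5 at an unadjusted p under 0.05 and 9 without overlap, with a median log2 fold change of -0.31. With the trend with gene length removed, 12 of 18 initiation genes, 6 of 15 conjugation genes and 5 of 6 receptors were lower by sign. Within initiation the median was -0.21 in the ULK complex, -0.15 in the PI3-kinase complex and -0.57 among the membrane and lipid genes. Of the 15 conjugation genes 9 were lower and 6 higher, with 1 at an unadjusted p under 0.05 and none entirely below NC, and the median was -0.03. This value was 0.03 after median-of-ratios scaling and 0.06 after removal of the trend with gene length, so it has no settled direction. Of the 6 cargo receptors 5 were lower, 3 at an unadjusted p under 0.05 and 4 without overlap. The median level relative to the NC mean was -0.23, -0.15 and -0.62 in HE1 to HE3 for initiation, 0.03, -0.03 and -0.16 for conjugation and -0.31, -0.38 and -0.95 for receptors, on the log2 scale. In NC the medians were 0.01, 0.11 and -0.12 for initiation, 0.01, 0.08 and -0.09 for conjugation and -0.03, 0.17 and -0.12 for receptors. In initiation and in receptors all 3 HE medians were thus below the NC medians, and in conjugation those of HE1 and HE2 were inside the NC range. The difference between steps was not tested, since genes of a step are not replicates.

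**Figure D4:**
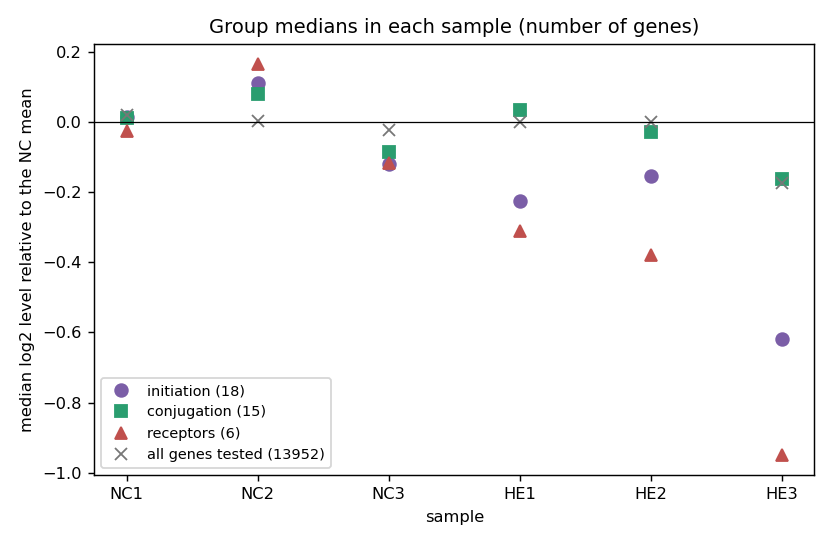
Median log2 level of each group of genes relative to the NC mean (y axis) in each sample (x axis), with the number of genes in the key and crosses for all genes tested. Receptors reach -0.95 and initiation -0.62 in HE3, while conjugation at -0.16 lies beside all genes at -0.17.

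HE3 carried the largest differences. It was the lowest of the 6 samples for 30 members (73.2%), against 44.4% of all genes tested, and the highest for 7. The median of the members relative to the NC mean was -0.08 in HE1, -0.09 in HE2 and -0.43 in HE3, while over all genes it was near 0 in HE1 and HE2 and -0.17 in HE3. Without HE3 the median log2 fold change of the members was -0.08 and that over all genes near 0, and it was -0.17 in initiation, 0.00 in conjugation and -0.38 in receptors. At an unadjusted p under 0.05, 8 members (19.5%) were then lower against 10.5% of all genes tested. Of these, 6 were among the 9 found with all samples (Ulk1, Wdr45, Atg2a, Sqstm1, Optn and Wdfy3), Atg2b and Wipi1 were added, and Atg13, Atg9a and Gabarapl1 were lost. In 23 members all 3 HE samples lay below the NC mean and in 4 all lay above. The matching share over all genes was not taken, so these counts cannot be read as particular to the members. Across the members the log2 level of HE3 correlated with the mean of HE1 and HE2 (Pearson r = 0.76, Spearman rho = 0.80, 41 genes), but both are relative to the same NC mean and genes are not independent replicates, so this is a description only.

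Gene length moved with the fold change over all genes. Length here is the value deposited with the counts and used for RPKM, and not the genomic span. For Wdfy3 it was 15343 bases, far less than the span of the coordinates given above. Over 5 classes of near-equal size, from the shortest to the longest genes tested, the median log2 fold change was 0.04, -0.02, -0.07, -0.08 and -0.13, and without HE3 it was 0.05, 0.01, -0.01, -0.02 and -0.04. The members, of 1181 to 15343 bases, had medians of -0.18, -0.16, -0.54, -0.22 and -0.11 in the same classes, which held 5, 10, 6, 7 and 13 of them. Conjugation genes were shorter (median 2541 bases) than receptors (5417) and initiation genes (6050). After the trend with length was removed from each sample the median was -0.12 over the members, -0.21 in initiation and -0.50 in receptors, and 11 members had an unadjusted p under 0.05, all lower, against 10.9% of all genes tested. These 11 held all 9 named before, with Atg14 and Wipi1 added.

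**Figure D5:**
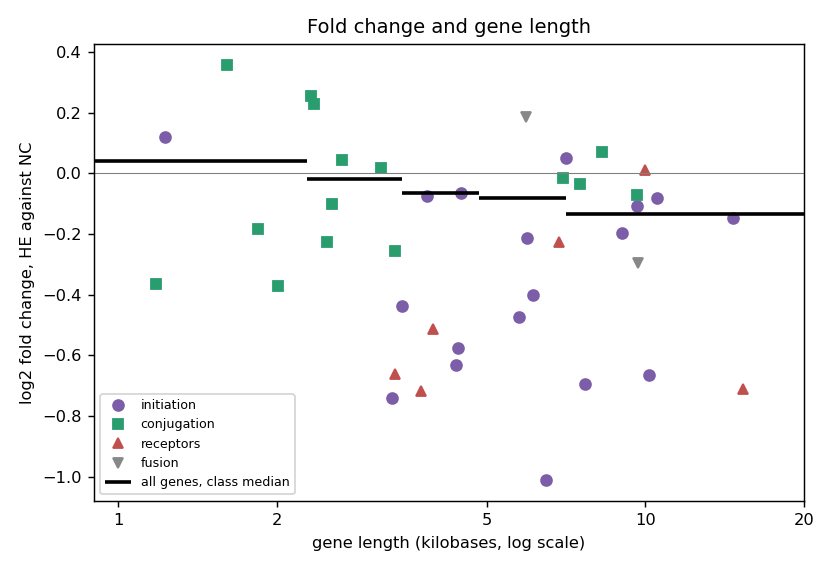
Log2 fold change (y axis, HE against NC) of the 41 members against gene length as used for RPKM (x axis, kilobases, log scale), with the group as the symbol and black lines at the median of all genes tested in each of 5 length classes (the longest class runs past the axis). The lines go from 0.04 to -0.13, and Ulk1, Wdr45, Optn and Wdfy3 lie well below the line at their length.

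Beyond the 41 genes, 82 others of the pathway were listed from general knowledge and 80 were tested. Of these 54 were lower (67.5%, against 56.2% of all genes tested) and 26 higher by sign. At an unadjusted p under 0.05, 16 (20%) were lower against 11.8% of all genes and 1 was higher against 8.68%. Without HE3, 14 (17.5%) were lower against 10.5% of all genes, and 3 of 80 were higher against 1305 of 13952 genes. The median log2 fold change was -0.13, or -0.04 without HE3, and none was called. Among 27 genes of upstream kinases and nutrient sensing, 7 were lower at an unadjusted p under 0.05 (Tsc1 and Tsc2, which restrain mTORC1, the AMPK-activating kinase Stk11, Flcn, Fnip2, Sesn2 and Castor1) and Tbc1d7, the remaining subunit of the TSC complex, was the 1 higher. Tbc1d7 was at 17.8, 14.4 and 16.6 RPKM in NC and 19.1, 19.3 and 23.1 in HE (log2 fold change 0.33, standard error 0.13, unadjusted p = 0.0390, adjusted p = 0.229). All 3 HE samples were above NC, but its unadjusted p stayed under 0.05 in only 6 of 14 alternatives and was 0.0695 without HE3. At the same cutoff, of 6 transcription factors 1 was lower (Tfe3), of 16 other core genes and regulators 3 (Nrbf2, Atg16l2 and Tecpr1), of 19 organelle and other receptors 3 (Retreg1, Retreg2 and Tex264) and of 12 fusion genes 2 (Plekhm1 and Vps18).

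The 3 genes of this wider list with the smallest p were lower in HE without overlap. Retreg2, which encodes a protein of the endoplasmic reticulum related to the receptor RETREG1, was at 62.4, 65.9 and 55.1 RPKM in NC and 44.5, 48.1 and 40.2 in HE, with a log2 fold change of -0.46 (standard error 0.12, unadjusted p = 0.00569, adjusted p = 0.195). Vps18, a core subunit of the complex that tethers membranes to the lysosome, was at 15.3, 16.9 and 13.0 RPKM in NC and 10.1, 11.4 and 9.40 in HE, with a log2 fold change of -0.54 (standard error 0.14, unadjusted p = 0.00616). Retreg1, the receptor through which endoplasmic reticulum is degraded, was at 10.9, 9.35 and 7.86 RPKM in NC and 5.64, 4.97 and 2.27 in HE. Its log2 fold change of -1.20 (standard error 0.33, unadjusted p = 0.00855, adjusted p = 0.195) was larger than that of any of the 41 members, and it was -0.80 without HE3.

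Promoters were read from RefSeq (GRCm38.p6), from 250 bases before to 50 after a start, and 33 of the 41 members had at least 1 window, 39 windows in all. On both strands, the letters CACGTG, the core that factors of the TFEB family bind, were in 4 windows (10.3%, those of Atg14, Atg3, Atg5 and Atg7) against 7.15% of 32851 RefSeq windows, and the longer TCACGTGA, which contains it, in that of Atg3 (0.974% of all). TGACNNNGC, the core of the antioxidant response element, was in 7 windows of 5 genes (17.9%, those of Atg13, Map1lc3b, Tax1bp1, Ulk2 and Vmp1) against 12.4% of all. GTAAACA, a forkhead site, was in 0 against 3.65%. Of the 8 members with an unadjusted p under 0.05 that had a window, 0 held CACGTG and 1, Atg13, held TGACNNNGC. A match is a description of letters and not a bound site. The 250 bases before the start are shown 5′ to 3′ on the gene's strand, for Sqstm1 as the most abundant member and for Atg13 and Atg3 as the ones with a match in capitals. They lie at chr11:50210821-50211070 (minus strand) for Sqstm1, chr2:91710593-91710842 (minus strand) for Atg13 and chr16:45158579-45158828 (plus strand) for Atg3.
Sqstm1: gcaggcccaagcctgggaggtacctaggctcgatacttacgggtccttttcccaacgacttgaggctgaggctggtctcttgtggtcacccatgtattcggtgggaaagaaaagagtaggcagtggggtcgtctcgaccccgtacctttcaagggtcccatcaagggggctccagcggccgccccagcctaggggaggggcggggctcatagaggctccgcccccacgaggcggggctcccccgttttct
Atg13: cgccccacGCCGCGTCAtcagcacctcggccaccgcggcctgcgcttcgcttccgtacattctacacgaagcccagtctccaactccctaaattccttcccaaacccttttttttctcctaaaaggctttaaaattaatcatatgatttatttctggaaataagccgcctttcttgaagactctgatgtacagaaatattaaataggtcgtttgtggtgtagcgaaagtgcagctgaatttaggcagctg
Atg3: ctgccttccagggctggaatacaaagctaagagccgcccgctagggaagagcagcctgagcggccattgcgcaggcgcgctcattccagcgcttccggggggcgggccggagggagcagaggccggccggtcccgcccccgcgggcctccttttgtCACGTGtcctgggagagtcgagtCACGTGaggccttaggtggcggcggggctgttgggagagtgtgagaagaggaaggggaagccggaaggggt
The match of Atg13 begins 242 bases before the start and reads as TGACNNNGC on the other strand, and those of Atg3 begin 94 and 71 bases before it. The Sqstm1 stretch holds none of these letters.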

How the data were processed

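RNA was measured in 3 HE and 3 NC samples, grouped by the sample labels. Reads were filtered by the authors, mapped to mm10 with TopHat2 and counted per gene, and the submitters' processing notes also name CASAVA 1.7. The TopHat2 version, the tool and gene models behind the counts, and whether strand was used for them, are not given in the sources used here, so overlapping genes and close paralogs could share reads. The paper and the labels name different sequencers. The deposited table holds the authors' read counts, not normalized, and RPKM computed by the authors from count, gene length and library total (the largest difference from that formula was 4.99e-07). The table also pairs no symbols with its identifiers, and symbols and coordinates came from the RefSeq table of GRCm38.p6 and a table of gene names.

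The members and the other lists were chosen with earlier results of these data known, and the other lists from general knowledge. The count cells hold commas between digits that the check of units does not read as numbers, so RPKM was chosen for the main test. With the commas removed the counts were usable, and voom on them was among the alternatives. limma (version 3.58.1, R 4.3.3) with a mean-variance trend was fitted on log2(RPKM + 0.1), with no term but group, to 13952 genes with 15 reads in total and, in at least 3 samples, a rate equal to 10 reads at the median library size. The pseudocount understates the change of genes at low levels. For a gene of 1 kilobase, 1 read corresponded to 0.0523 to 0.0622 RPKM, which gives the scale of 1 read and is not a measure of error. An exact two-sided permutation test of each member's RPKM over the 20 assignments cannot go below 0.1, a value that 15 members reached. The fit was tested on simulated data. No sample pair held identical counts (0 pairs).

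The genes shown sample by sample were, by rule, the members with an unadjusted p under 0.05, the member of each subgroup with the highest mean RPKM or the smallest p, and up to 3 other autophagy genes in each direction. Members shown by range, and Atg2b, Wipi1, Calcoco1, Atg4a, Uvrag, Stx17 and Gabarapl2 in more detail, were chosen after their values were seen. Alternatives were median-of-ratios scaling, a pseudocount of 1, a filter of 1 read, a filter of 10 reads in each sample, a replicate block, leaving out each sample, voom on the read counts, sample weights and removal of a lowess trend with length (span 0.3).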

Additional observations from a re-analysis of the deposited data

How the results depend on the processing

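No member was called in any of the 14 alternatives, and the table as a whole gave 0 calls in 12 of them. Without NC3 103 genes were called and with sample weights 268, with 876 at an adjusted p under 0.05, among them Sqstm1, Optn and Wdfy3 (adjusted p = 0.0460, 0.0489 and 0.0362, against up to 0.502 in other alternatives), whose fold changes stayed under the cutoff. HE3 then had a weight of 0.158 and the other samples 0.852 to 2.87. Of the 9 members at an unadjusted p under 0.05, Ulk1, Wdr45, Atg2a, Sqstm1, Optn and Wdfy3 stayed under it in all 14 alternatives. The count was 6 to 11 when each sample was left out in turn, and the count of higher members was 0 to 1, the 1 being Atg5 without HE2. With the replicate block the count was 14 (Atg14, Atg2b, Calcoco1, Map1lc3a and Wipi1 added). Apart from the fit without HE3, the matching shares over all genes were not taken for these fits. Their counts therefore cannot be read as particular to the members. The labels state no pairing by number. Deviations of same-numbered samples from their group means correlated at 0.156, 0.0869 and 0.0603, and each sample correlated best with its own number. These values are small, and with 3 samples a group they cannot settle whether the numbers mark pairs. The median over the members ran from -0.30 to -0.08 in the fits without 1 sample, the last without HE3. The conjugation median was -0.03, and 0.060 with the length trend removed. Of 266 values of single genes under alternatives, 243 kept their side of an unadjusted p of 0.05, 16 moved above it and 7 below it. The 9 members under it in the main fit stayed lower in HE in every alternative. Among the other members the sign did turn, for 8 without HE3 and for 7 with the length trend removed. The causes were not tested. With 3 samples a group, and HE3 apart, adjusted p-values depend on few samples, and levels of Atg10 rest on few reads.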
